A study of Mus musculus with 2 samples.

Results

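The genes described here encode the Wnt ligands, their receptors and antagonists, and intracellular components, transcription factors and targets of Wnt signalling. They were chosen by the gene name printed on the array: the Wnt, Fzd, Sfrp and Dkk families and 17 further genes from Lrp5 to Ryk. The rule found 54 genes read by 75 probes, out of 27942 genes and 41174 probes. Of the 54 genes, 34 were measured well above background in both lines and 3 in 1 line, which gives 37 genes with a comparison. The other 17 were dim in both, where dim means that the spot did not pass the scanner software's limit of 13 background SDs.

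Total RNA was measured in 2 lines of mouse neural progenitor cells of strain 129/Ola, with 1 Agilent 1-colour array per line. The Pax6 line overexpressed Pax6, which encodes a DNA-binding regulator of eye and cortex formation, and the EGFP line overexpressed a green fluorescent protein as its control. Both transgenes were delivered with the Tol2 transposon under the CAG promoter, which is active in most cell types. Both lines derive from N31, a progenitor line of iPS cell origin with transgenes for the reprogramming factors Oct3/4 and Sox2 as well as Klf4 and c-Myc that respond to doxycycline. Both had been exposed to doxycycline for 24 h, so the controls carried the transgenes for these factors as well. At this time a change of cell shape was visible in the EGFP line only, and the series asks how Pax6 affects the mesenchymal to epithelial transition during reprogramming.

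Wnt proteins are secreted, lipid-modified signals. When one binds a Frizzled receptor and the co-receptor Lrp5 or Lrp6, the complex that destroys β-catenin is inhibited, and β-catenin enters the nucleus and activates genes together with TCF/LEF factors. Other Wnt proteins act through Ror and Ryk receptors or the planar polarity pathway without β-catenin. In the developing nervous system Wnt signals control progenitor division, patterning and axon growth.

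With 1 array per line there was no replicate check, so no p-value is given and precision is limited by the number of arrays. Values after ± are the scanner software's error of the signal carried to the log2 difference, which covers measurement and not the spread between cultures. Well above background were 67.2% of 43379 spots on the Pax6 array and 64.7% on the EGFP array, and 0 spots were saturated. The 75th percentile of the signal, to which each array was scaled, was 991 on the Pax6 array and 854 on the EGFP array, so an unchanged gene reads 1.16-fold brighter in raw signal on the Pax6 array. Signals below are raw, and log2 differences and folds are scaled, Pax6 minus EGFP. The brightest probe of Pax6 itself read 822 on the Pax6 array and 557 on the EGFP array (0.35 ± 0.20), and whether this probe reads the transgene is not known here. Every direction therefore depends on the array labels. Of 17 neural progenitor markers 15 were well above background on both arrays, and Hes5 and Olig2 were on neither. Of the 15, Sox2, which is also a doxycycline-induced factor, was 3.35-fold higher in the Pax6 line. Nes was 3.17-fold lower there and Slc1a3 was 12.9-fold lower.

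The Wnt genes that differed most were ligand genes. Wnt5a, Wnt9a and Wnt2 were each more than 3-fold higher in the Pax6 line, and Wnt10a was lower by a factor of 2.50 or more. No receptor, antagonist, intracellular or nuclear gene among the 37 reached 2-fold. With 26 genes other than ligands, a count of 0 is near the share over all genes given next and is not a result about them. Over all the genes used, 18679 in number, 4.86% differed by at least 2-fold, 2.40% being higher and 2.46% lower on the Pax6 array. Among the 37 Wnt genes 3 passed 2-fold upwards and 1 downwards, a share of 10.8%. Of 907 genes at least 2-fold different in all, 49.4% were higher on the Pax6 array. With normexp background correction and quantile normalization this share was 61.8% (175 higher and 108 lower). Since each array measured RNA pooled from many cells, more cells expressing a gene and more of its RNA per cell cannot be told apart.

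**Figure D1:**
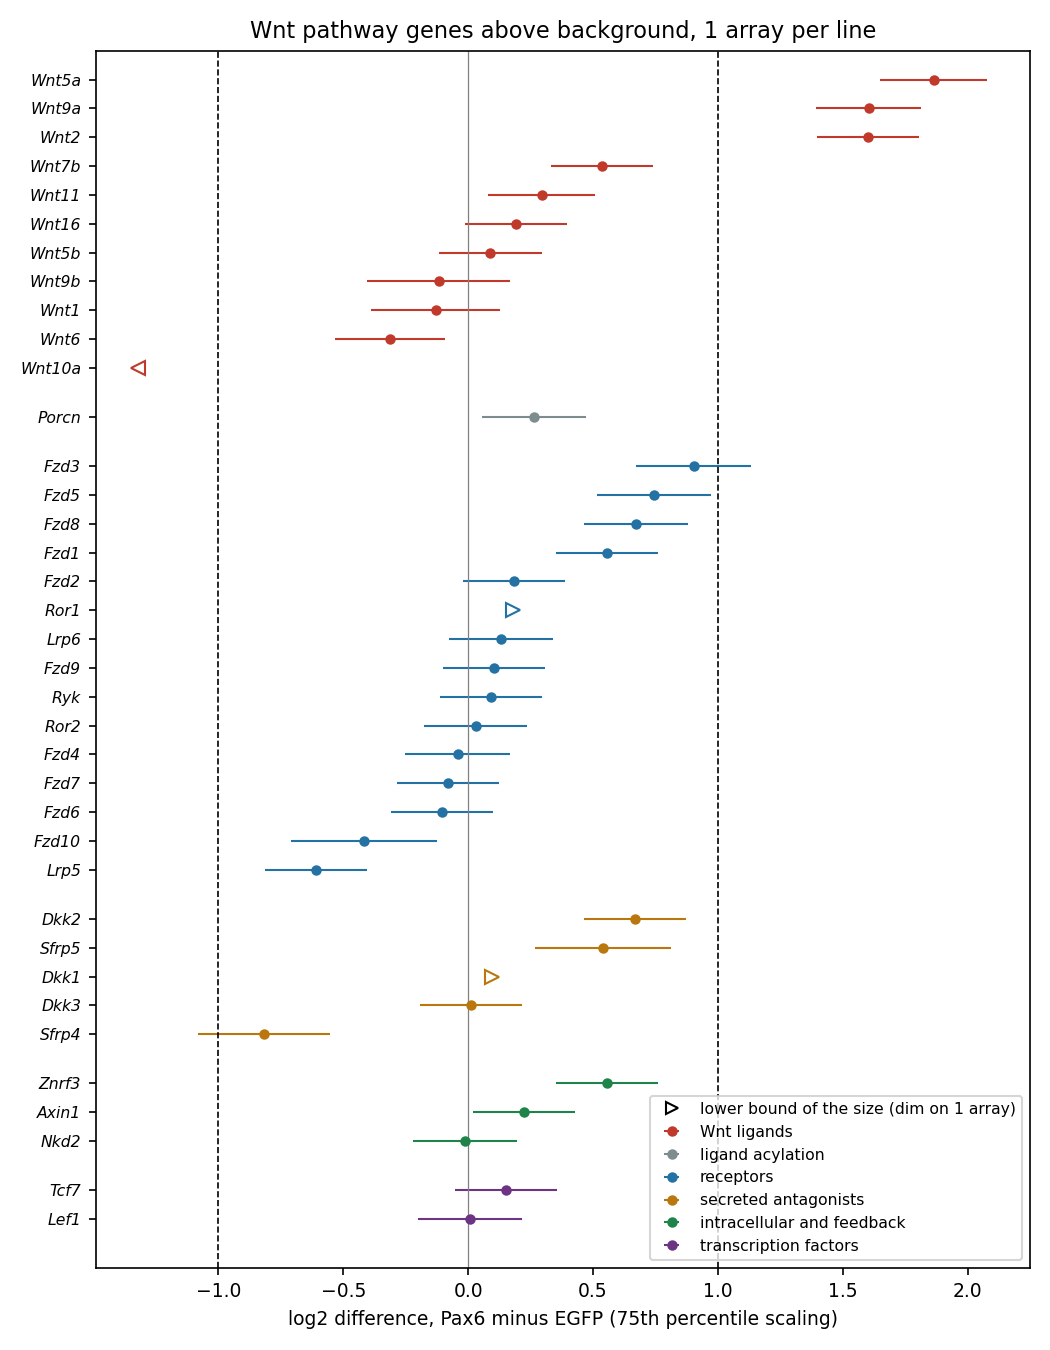
Log2 difference, Pax6 minus EGFP, of the 37 Wnt pathway genes well above background on at least 1 array, 1 array per line, in blocks by role. Points are differences with bars of ± the software error, open triangles are lower bounds of the size for genes dim on 1 array, and dashed lines mark 2-fold. Wnt5a, Wnt9a and Wnt2 lie between 1.60 and 1.86, and Wnt10a lies beyond the line on the other side.

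Wnt5a, a ligand that mostly acts without β-catenin, had the largest difference of the family. Its probe (chromosome 14, 25948244 to 25952114, mouse build mm7) read a signal of 257 on the Pax6 array and 60.8 on the EGFP array. The log2 difference was 1.86 ± 0.21, or 3.64-fold higher, at percentile 99.4 of all genes used. The difference was several times its measurement error and was the only reading of this gene, since the array carried no other Wnt5a probe.

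Wnt9a, a ligand known from joint and liver development, read 241 on the Pax6 array and 68.4 on the EGFP array (chromosome 11, 59414739 to 59414798). The difference on the log2 scale was 1.60 ± 0.21, or 3.04-fold higher. A second Wnt9a probe (chromosome 11, 59412554 to 59412613) was not well above background on either array, at 7.81 on the Pax6 array and 2.72 on the EGFP array, so it gave no second reading. Wnt2, a ligand of the β-catenin pathway known from lung and placental vessels, read 473 on the Pax6 array and 135 on the EGFP array (chromosome 6, 17929740 to 17929799). It was higher by 3.03-fold (1.60 ± 0.21) and was read by 1 probe.

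Wnt10a, a ligand of skin, hair and tooth development, was the exception in direction. It read 6.82 on the Pax6 array, which was not well above background, and 20.0 on the EGFP array, which was (chromosome 1, 75043739 to 75043798). Set against 9.30, the dimmest probe signal on the Pax6 array that passed as well above background, it was at least 2.50-fold lower, and its difference as measured was -1.77 ± 0.50. Both signals were low, and with normexp background correction the difference was -0.22, within 2-fold.

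The promoters of Wnt2 and Wnt9a are shown because, of the Wnt genes at least 2-fold different, only these had a promoter sequence available here. They are the 250 bases before the RefSeq start of each gene, build GRCm38.p6, written 5′ to 3′ on the gene's strand, with capitals for the GC box GGGCGG, the site of Sp and Klf family factors, on either strand. Wnt2 lies at chr6:18030446-18030695 on the minus strand and Wnt9a at chr11:59306680-59306929 on the plus strand.
Wnt2: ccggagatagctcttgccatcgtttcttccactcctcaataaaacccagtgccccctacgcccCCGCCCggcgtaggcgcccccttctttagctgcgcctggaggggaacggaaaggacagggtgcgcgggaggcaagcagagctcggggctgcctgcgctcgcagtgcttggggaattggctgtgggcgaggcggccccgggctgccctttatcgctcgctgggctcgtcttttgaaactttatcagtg
Wnt9a: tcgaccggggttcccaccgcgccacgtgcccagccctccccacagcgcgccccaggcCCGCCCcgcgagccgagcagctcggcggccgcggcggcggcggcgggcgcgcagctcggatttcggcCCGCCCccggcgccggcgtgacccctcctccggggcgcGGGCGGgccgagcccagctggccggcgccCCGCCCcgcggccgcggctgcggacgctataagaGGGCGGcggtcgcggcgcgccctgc

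The Wnt9a promoter held 5 GC boxes and 48 CpG dinucleotides, and the Wnt2 promoter 1 GC box and 20 CpG dinucleotides, where the median was 6 CpG over 32851 mouse promoters and 16.5 over those of the Wnt pathway genes. GC boxes occurred in 32.7% of all these promoters and in 30 of 44 promoters of the Wnt pathway genes (68.2%). The 44 promoters belong to 36 genes, some with several promoters. Median GC content was 52.4% over all promoters and 65.2% over the 44, and its part in the share of GC boxes was not tested. The TCF/LEF letters CTTTGAT or else CTTTGAA and likewise CTTTGTT or else CTTTGTA were searched on both strands as well and were in neither window. They occurred in 14.8% of all promoters and in 6 of the 44, with any overlap with GC boxes not counted. Their absence says only that these letters are not in these windows. The table matched 36 of the 54 genes by symbol. Wnt5a and Wnt10a were not among them.

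The other ligand genes above background differed by less than 2-fold. Wnt7b, a ligand of the forebrain and lung, read 1234 on the Pax6 array and 734 on the EGFP array (0.53 ± 0.20). Wnt16, a ligand of bone and blood development, read 1042 on the Pax6 array and 786 on the EGFP array (0.19 ± 0.20). Wnt11, which acts mostly without β-catenin in cell movements of the embryo, read 103 on the Pax6 array and 72.6 on the EGFP array (0.29 ± 0.21). Of these, Wnt7b differed by more than 2 times its error, and Wnt16 and Wnt11 did not. Wnt5b, the closest relative of Wnt5a, read 158 on the Pax6 array and 128 on the EGFP array, a difference of 0.09 ± 0.21. Wnt6, a ligand known from somite and kidney epithelium, read 54.5 on the Pax6 array and 58.4 on the EGFP array (-0.31 ± 0.22). Wnt9b, the closest relative of Wnt9a and an organiser of kidney tubules, read 20.9 on the Pax6 array and 19.6 on the EGFP array (-0.12 ± 0.29). The paralogs Wnt5b and Wnt9b thus lay within their error of 0, while Wnt5a and Wnt9a did not.

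**Figure D2:**
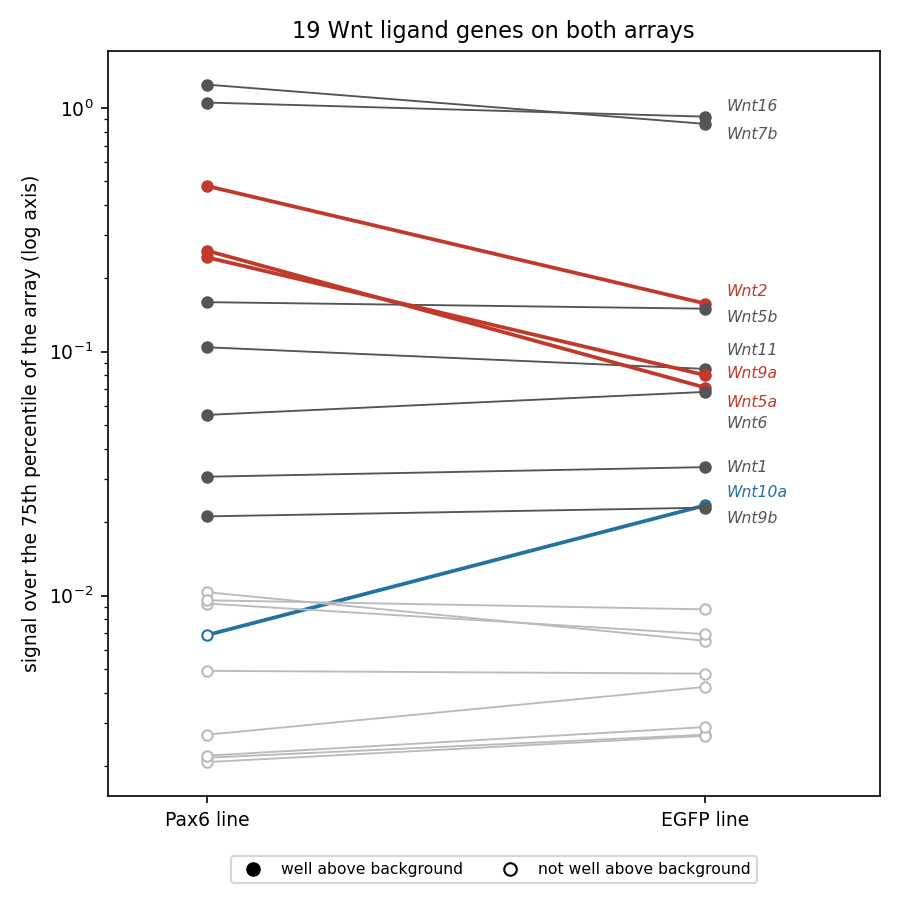
Signal divided by the array's 75th percentile (log axis) of the 19 Wnt ligand genes on the Pax6 array (left) and the EGFP array (right), 1 array each, with a line per gene and open circles where a probe was not well above background. Lines are to be compared by slope and not by height, because probes differ in brightness. The red lines of Wnt5a, Wnt9a and Wnt2 are higher in the Pax6 line, and the blue line of Wnt10a is lower there.

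Wnt1, the ligand that patterns the midbrain, was printed in 10 spots and shows the precision of a weak probe. Its spots on the Pax6 array read a lowest signal of 17.8, a median of 32.5 and a highest of 39.6. On the EGFP array they read 16.1, 31.2 and 42.0. The spots of the 2 arrays overlapped almost fully, and 3 of the 10 gave a scaled difference above 0 and 7 below. The mean log2 difference was -0.13 with an SD of 0.38 over spots, larger than the software error of 0.26. Wnt9b and Wnt10a, of similar or lower brightness on the EGFP array, were read by 1 spot each.

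**Figure D3:**
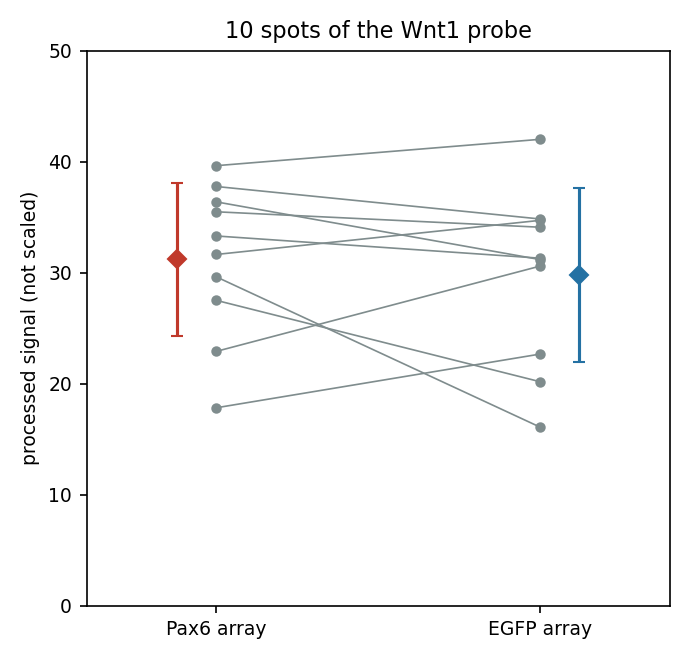
Processed signal, not scaled, of the 10 spots of the Wnt1 probe on the Pax6 array (left) and the EGFP array (right), with lines joining the same spot position and diamonds with bars for the mean ± SD over spots. The 2 sets cover nearly the same range, 17.8 to 39.6 on the Pax6 array and 16.1 to 42.0 on the EGFP array.

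The 8 other ligand genes, Wnt2b, Wnt3, Wnt3a, Wnt4, Wnt7a, Wnt8a, Wnt8b and Wnt10b, stayed below the background limit on both arrays. Among these are Wnt3a and Wnt8a, ligands that activate β-catenin strongly. Several ligand genes are chromosomal neighbours. Wnt3a, the neighbour of Wnt9a on chromosome 11, was dim on both arrays. Wnt6, whose probe is 19.2 kb from that of Wnt10a on chromosome 1, was measured on both arrays and stayed within 2-fold. Wnt9b and Wnt3 (88.5 kb apart on chromosome 11) and Wnt1 and Wnt10b (20.7 kb apart on chromosome 15) each had 1 partner above background. Porcn, the acyltransferase that attaches the lipid a Wnt protein needs for secretion, read 131 on the Pax6 array and 93.9 on the EGFP array (0.26 ± 0.21).

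All 15 receptor genes could be compared. Of these, 0 reached 2-fold, and 10 lay above 0. With 4.86% of all genes past 2-fold, a count of 0 among 15 receptors, or among the smaller sets below, is near the background and is not a result about them. Among the 10 Frizzled genes, which encode the main Wnt receptors, 6 lay above 0 and 4 below, with a median of 0.14. Under the other scalings and probe rules 6 to 8 lay above 0. Fzd3, a receptor needed for axon tracts and planar polarity, had the largest difference and read 112 on the Pax6 array and 51.7 on the EGFP array. Its log2 difference was 0.90 ± 0.23 (1.87-fold), and a second probe gave 0.49 ± 0.28. Fzd5, a receptor of the eye field, read 71.2 on the Pax6 array and 36.7 on the EGFP array (0.74 ± 0.23). Fzd8, a forebrain receptor, read 172 on the Pax6 array and 93.1 on the EGFP array (0.67 ± 0.21). Its second probe read 12.6 on the Pax6 array and a dim 5.21 on the EGFP array, a difference as measured of 1.06 ± 0.65. Fzd1, a receptor of the β-catenin pathway, read 871 on the Pax6 array and 511 on the EGFP array (0.56 ± 0.20). By their brightest probes these 4 receptor genes were higher on the Pax6 array by more than 2 times their error, all short of 2-fold. With normexp background correction Fzd3, Fzd5 and Fzd8 differed by 0.37, 0.33 and 0.46.

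The remaining Frizzled genes were close on both arrays. Fzd2 read 2166 on the Pax6 array and 1644 on the EGFP array (0.18 ± 0.20). Fzd7, a receptor of stem cells, read 761 on the Pax6 array and 695 on the EGFP array (-0.08 ± 0.20), while its dimmer probe gave 0.30 ± 0.21. Fzd4, the receptor for norrin in retinal vessels, Fzd6, known from hair patterning, and Fzd9 differed by -0.04, -0.10 and 0.10. Fzd10 differed by -0.42 ± 0.29 from signals of 21.6 on the Pax6 array and 24.8 on the EGFP array. It was by this value the lowest of the Frizzled genes, with a difference of less than 2 times its error.

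Lrp5 and Lrp6, the co-receptors that recruit Axin, lay on opposite sides of 0. Lrp5 read 889 on the Pax6 array and 1170 on the EGFP array, a log2 difference of -0.61 ± 0.20 (1.53-fold lower). Lrp6 read 133 on the Pax6 array and 104 on the EGFP array (0.13 ± 0.21). Of the receptors that act without β-catenin, Ryk read 7694 on the Pax6 array and 6225 on the EGFP array (0.09 ± 0.20), and Ror2, a receptor for Wnt5a, read 188 on the Pax6 array and 159 on the EGFP array (0.03 ± 0.21). Ror1, its relative, read 13.6 on the Pax6 array and a dim 5.77 on the EGFP array. The bound was 1.13-fold or more, and the difference as measured was 1.02 ± 0.66. Ror2 and Ryk, which both arrays measured, thus differed by less than their error.

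Secreted antagonists lay on both sides of 0. Of 9 genes with a probe, 5 were above background on at least 1 array and 0 reached 2-fold. Sfrp4, a decoy that resembles the Wnt-binding part of a Frizzled, read 31.6 on the Pax6 array and 48.0 on the EGFP array, the lowest difference among the non-ligand genes at -0.82 ± 0.26 (1.76-fold lower). Sfrp5, of the same family, read 34.4 on the Pax6 array and 20.4 on the EGFP array (0.54 ± 0.27). The 2 Sfrp genes above background thus lay on opposite sides of 0. With normexp background correction they differed by -0.31 and 0.12. Dkk2, which binds Lrp5 and Lrp6 and can inhibit or mildly activate signalling, read 3310 on the Pax6 array and 1799 on the EGFP array (0.67 ± 0.20). Dkk3, a divergent member that does not block Lrp6, read 283 on the Pax6 array and 242 on the EGFP array (0.01 ± 0.20). Dkk1, the best known Lrp6 blocker and itself a β-catenin target, read 12.8 on the Pax6 array and 9.88 on the EGFP array, where it was dim. The bound was 1.07-fold or more, and the difference as measured, 0.16 ± 0.44, was less than its error. A second Dkk1 probe, dim on both arrays, read 4.42 on the Pax6 array and 9.17 on the EGFP array (-1.27 ± 0.81). Sfrp1, Sfrp2, Dkk4 and Wif1, which binds Wnt proteins directly, were dim on both arrays.

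Reported β-catenin targets were in part above background. Of 9 among the genes chosen (Axin2, Sp5, Lgr5, Nkd1, Rnf43, Znrf3, Lef1, Tcf7 and Dkk1), 4 were above background on at least 1 array and 0 reached 2-fold. Of 30 further reported targets on the pathway list, 21 could be compared, with 1 past 2-fold upwards and 2 downwards. This was a share of 14.3%, where it was 4.86% for all genes. Axin2, a feedback scaffold and the most widely used target, read 5.22 on the Pax6 array and 4.11 on the EGFP array. Lgr5, the R-spondin receptor of intestinal stem cells, read 6.43 on the Pax6 array and 2.24 on the EGFP array. Sp5, Nkd1 and Rnf43 were likewise not well above background on either array, with signals from 2.51 to 9.25 on the Pax6 array and from 2.70 to 7.52 on the EGFP array. For genes dim on both arrays, a difference that stays below the background limit was not detectable. Znrf3, a ubiquitin ligase that removes Frizzled receptors, was measured on both arrays, as were Tcf7 and Lef1, and read 383 on the Pax6 array and 225 on the EGFP array (0.56 ± 0.20).

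Beside Znrf3, 4 intracellular and nuclear genes were measured on both arrays. Axin1, the scaffold of the destruction complex, read 2479 on the Pax6 array and 1831 on the EGFP array (0.22 ± 0.20). Nkd2, a Dishevelled-binding inhibitor, read 89.2 on the Pax6 array and 77.6 on the EGFP array (-0.01 ± 0.21). Tcf7, a TCF/LEF factor, read 2060 on the Pax6 array and 1598 on the EGFP array (0.15 ± 0.20), with 0.26 from its second probe. Lef1, the other β-catenin partner of the set, read 105 on the Pax6 array and 90.1 on the EGFP array (0.01 ± 0.21), while a dimmer probe gave -0.36 ± 0.25.

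The 37 genes lay more often above 0 than below: 26 of the 37 genes lay above 0 and 11 below, a share of 70.3% above 0 that was 47.3% for all genes used. The median log2 difference was 0.13 for the 37 genes and -0.01 for all genes. Many of the 37 differences were smaller than their own software error, and the median of 0.13 was below the median error of 0.20 over all genes. Fzd4, Fzd7, Lef1 and Nkd2 changed sign under some of the other settings. Between the scalings and background corrections tried, the median of the Wnt genes ran from 0.08 to 0.21, and its highest value came with scaling by the median of each array, which also put 60.1% of all genes above 0. Without the ligands, 19 of 26 genes lay above 0, with a median of 0.12 and 0 genes at 2-fold. With 4.86% of all genes past 2-fold, a count of 0 among 26 is near the background and is not a result about them.

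**Figure D4:**
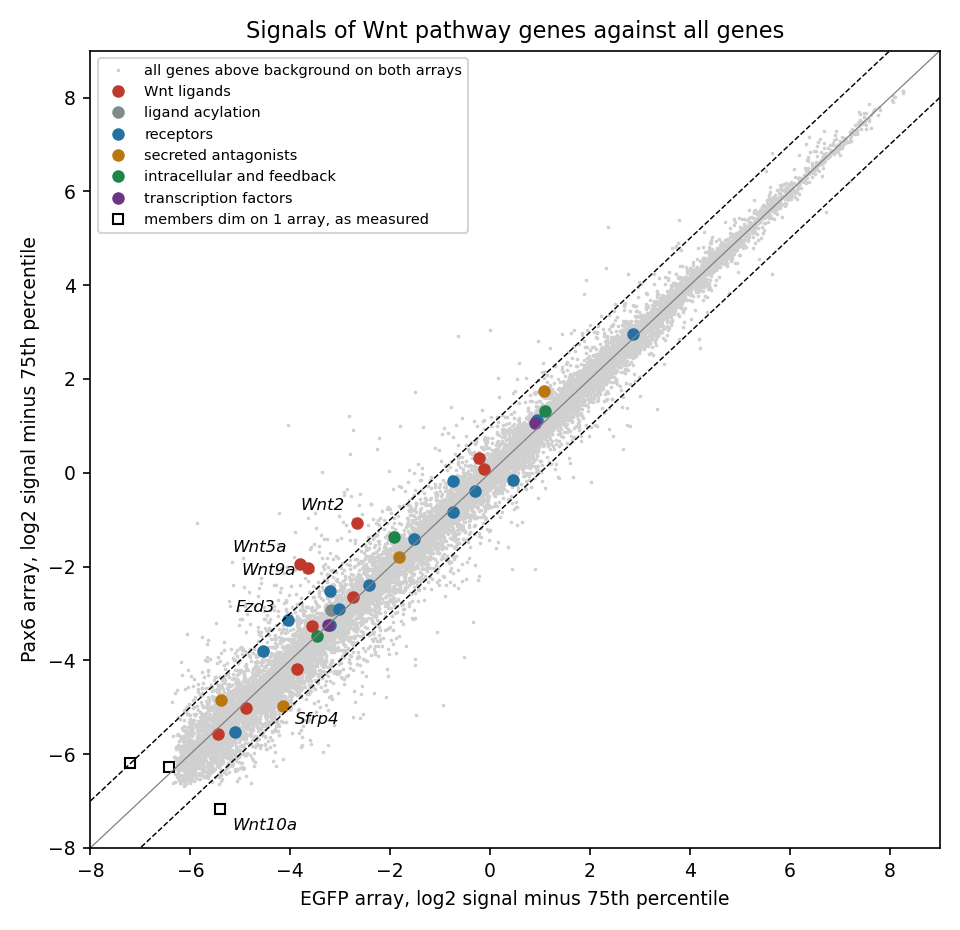
Scaled log2 signal on the Pax6 array (vertical) against the EGFP array (horizontal), 1 array each, for all genes well above background on both arrays (grey) and the Wnt pathway genes by role (colours). Squares are Wnt genes dim on 1 array, as measured, and dashed lines mark 2-fold. Wnt5a, Wnt9a and Wnt2 lie above the upper line and the other Wnt pathway genes measured on both arrays lie between the lines.

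Further genes of the pathway were described from a list of 115 genes with a probe that are not in the families above. Of 102 that could be compared, 3 passed 2-fold upwards in the Pax6 line and 5 downwards, a share of 7.84% that was 4.86% for all genes. Of the core genes named next, all but Tcf7l1 differed by less than 2 times their error. Ctnnb1, the gene of β-catenin, differed by 0.09 ± 0.20, Apc by -0.04 ± 0.20 and Gsk3b, the kinase that marks β-catenin for destruction, by -0.30 ± 0.20. Wls, the carrier that brings Wnt proteins to the cell surface, differed by -0.33 ± 0.20. The TCF genes Tcf7l1, mainly a repressor, and Tcf7l2 differed by 0.57 ± 0.20 and 0.20 ± 0.20. None of 30 intracellular genes and none of 15 nuclear genes above background reached 2-fold, with ranges of -0.48 to 0.41 and -0.48 to 0.91. Counts of 0 in sets of this size are near the share over all genes and are not results about them. Among the intracellular genes Amer2 and Dact1 were dim on the EGFP array and counted as 0. As measured they differed by 2.08 ± 1.47 and 0.98 ± 0.82.

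The genes that did reach 2-fold were secreted or surface proteins, a polarity gene and reported targets. Sostdc1, a secreted protein that binds Lrp5 and Lrp6 and also inhibits BMPs, read 420 on the Pax6 array and 121 on the EGFP array (1.58 ± 0.21, 2.996-fold higher). Lgr6, an R-spondin receptor related to Lgr5, read 33.5 on the Pax6 array and 130 on the EGFP array (-2.18 ± 0.23, 4.52-fold lower). Its relative Lgr4 read 638 on the Pax6 array and 427 on the EGFP array (0.37 ± 0.20). The 2 R-spondin receptor genes above background thus lay on opposite sides of 0. Cthrc1, a secreted glycoprotein that favours planar polarity signalling, read 27.9 on the Pax6 array and 8.96 on the EGFP array, which was dim there, and the bound was 2.32-fold or more. Rspo1, a ligand of the Lgr receptors, read a dim 12.03 on the Pax6 array and 20.9 on the EGFP array, lower by 2.02-fold or more, and it stayed within 2-fold with quantile normalization, cyclic loess or scaling by the median. Both these bounds rest on low signals, and with normexp background correction they were 0.14 for Cthrc1 and -0.14 for Rspo1.

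Celsr1, a cadherin of the planar polarity pathway, read 110 on the Pax6 array and 249 on the EGFP array (-1.39 ± 0.21, 2.62-fold lower). Of 15 planar polarity genes, 11 lay below 0 and 26.7% above it, where 47.3% of all genes lay above 0. With scaling by the median of each array 8 lay below 0 and 46.7% above, where 60.1% of all genes lay above. Several of these differences were smaller than their software error. Msx1, a homeobox gene induced by BMP and Wnt signals, read 1432 on the Pax6 array and 400 on the EGFP array (1.63 ± 0.20, 3.09-fold higher). Id2, a target of BMP signals too, was 2.48-fold lower, at 211 on the Pax6 array and 452 on the EGFP array. Fst, which encodes the activin antagonist follistatin, was 2.53-fold lower, at 84.8 on the Pax6 array and 185 on the EGFP array. With normexp background correction Celsr1 (-0.92) and Fst (-0.93) were within 2-fold. The 3 reported targets past 2-fold thus lay in both directions. Ccnd1, the gene of cyclin D1, read 16181 on the Pax6 array and 8285 on the EGFP array (0.75 ± 0.20), and Myc, which is also one of the doxycycline-induced factors, differed by -0.02 ± 0.20. Of the other induced factors, Sox2 read 307 on the Pax6 array and 79.2 on the EGFP array (1.74 ± 0.21), and Pou5f1, the gene of Oct3/4, read 14.3 on the Pax6 array and a dim 7.99 on the EGFP array. Whether these probes read the transgenes is not known here. Klf4, also an induced factor, was on none of the gene lists and its value is not given. Bambi, a target that acts as a decoy receptor for TGF-β, was just within 2-fold with signals of 398 on the Pax6 array and 684 on the EGFP array (-0.99 ± 0.20).

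Markers of other cell types differed between the arrays beside these genes. Of 10 fibroblast and mesenchymal markers, 9 were well above background in the Pax6 line and 8 in the EGFP line, with 3 past 2-fold upwards and 4 downwards. The higher ones were Fap (at least 19.2-fold), Dcn (7.71-fold) and Col3a1 (3.80-fold), and the lower ones Col1a1 (5.02-fold), Thy1 (at least 4.395-fold), Tagln (3.36-fold) and Col1a2 (2.27-fold). Their summed signal was 79067 on the Pax6 array and 109940 on the EGFP array, of which Col1a2 alone gave 46506 on the Pax6 array and 90871 on the EGFP array. Of 9 epithelial markers 7 were above background on both arrays and all 7 passed 2-fold downwards in the Pax6 line, with a summed signal of 25401 there and 60160 on the EGFP array. Ocln and Esrp1 were on neither. Of 6 endothelial and blood markers, Pecam1, Cdh5 and Ptprc were dim on both arrays. Cd68 and Hba-a1 were above background on both and Kdr on the Pax6 array only, all within 2-fold. Of the neuron and pluripotency markers, Snap25 (3.15-fold) and Zfp42 (2.81-fold) were lower in the Pax6 line, and the others compared stayed within 2-fold. The part of these cell type markers in the differences of Wnt5a, Wnt9a, Wnt2 and Wnt10a was not tested.

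**Figure D5:**
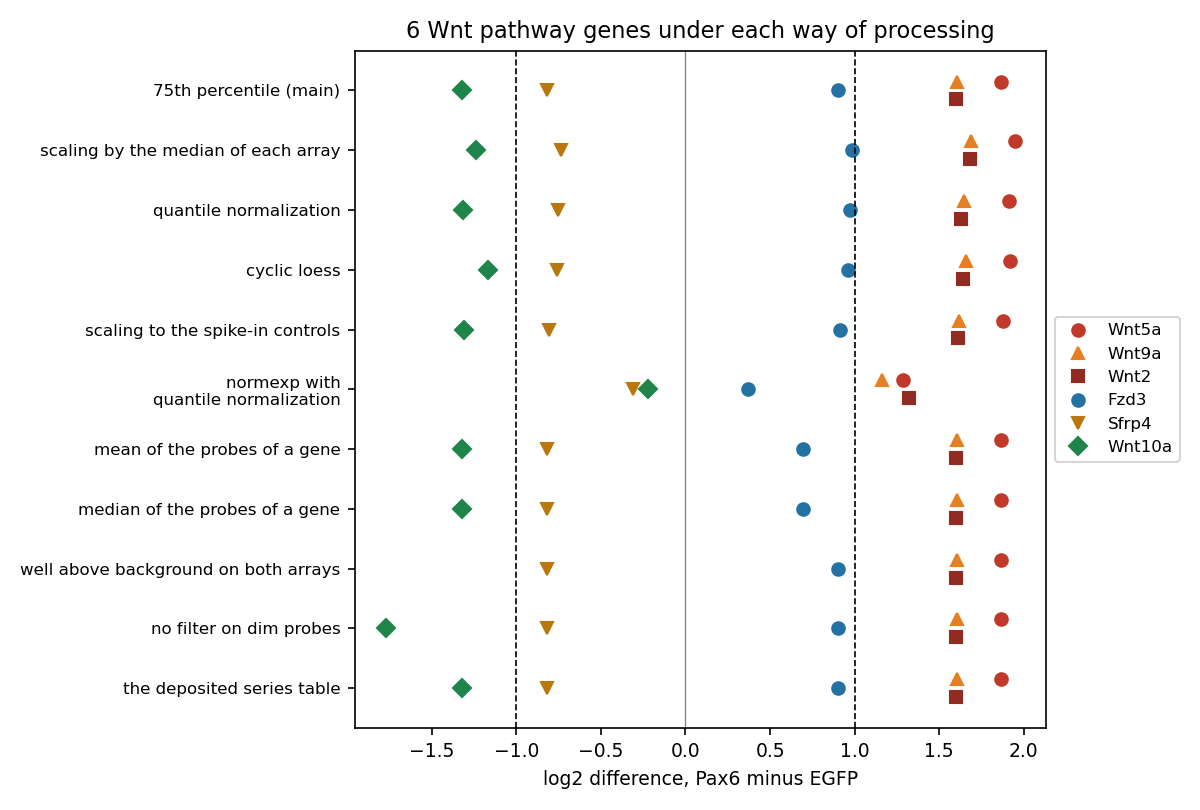
Log2 difference, Pax6 minus EGFP, of 6 Wnt pathway genes under the main processing (top row) and 10 other ways of processing the same 2 arrays (1 per row), with dashed lines at 2-fold. Wnt5a, Wnt9a and Wnt2 stay above the right line in every row, and Wnt10a moves to -0.22 with normexp background correction and has no point where both arrays had to be above background. For Wnt5a, Wnt9a and Wnt2 the rows of the probe rules, the filters and the deposited table repeat the main value.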

How the data were processed

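Spot values of the 2 arrays, 1 per line, come from the authors' scans and Agilent Feature Extraction (version 10.7.3.1 in the headers). Each deposited intensity is that software's processed signal: background was subtracted and spatial trends were removed array by array, with no step between arrays, per the file headers. The deposited flags mark spots exceeding background by 13 of its SDs. The deposited series table held the same values (largest difference 0). Both arrays lay on 1 slide.

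Outlier spots were left out (52 on the Pax6 array, 51 on the EGFP array, 0 of them of Wnt genes). The log2 signal minus the array's 75th percentile was averaged over spots of a probe, and a gene took its brightest probe. Genes dim on 1 array are given as bounds against whichever is higher, the dim reading itself or the dimmest probe passing the background limit (9.30 on the Pax6 array, 10.3 on the EGFP array), and a bound that came out below 1-fold counts as 0. Bounds enter medians and counts. Accessions matched current symbols for 22951 probes (55.7%). Other probes took the symbol paired with the same array name, or kept that name. Members kept their array names. Older symbols on the pathway list were counted once under the current one, and Dact3 had no probe under its symbol. Coordinates are those of the array design (mm7), for which no annotation was used, so no exon is named. E-box and TATA-box letters were also searched for in the promoters and were dropped after their counts were seen.

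No test was possible between single arrays, and genes were counted by a rule of at least 2-fold. Every Wnt gene above background is named with its difference, as are pathway genes at least 2-fold different and 8 central ones. Other pathway genes (Lgr4, Bambi, Amer2 and Dact1) were added after their values were seen. The members and lists were chosen with earlier results of these data known. The steps were tested on simulated data with known changes and the same size of error for every probe. The larger errors of dim probes and the spread between cultures were not simulated, so that test does not cover them. Alternatives used limma 3.58.1 in R 4.3.3.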

Additional observations from a re-analysis of the deposited data

How the results depend on the processing

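No paired analysis was possible because each line had 1 array. Among the alternatives were scaling by the median of each array, to the spike-in controls, quantile normalization alone or after normexp (offset 50), cyclic loess, averaging probes or taking their median, requiring signal on both arrays, dropping the filter, and the deposited series table. Wnt2, Wnt5a and Wnt9a were at least 2-fold higher under all 10, at 1.32 to 1.68, 1.29 to 1.95 and 1.16 to 1.69. Several of the 10 could not change these values. Each gene had 1 probe above background, on both arrays, so the probe rules and filters returned the main value. The deposited series table held the same data, and scaling by the median or to the spike-in controls shifts every gene alike. The lowest values of these genes came from normexp, whose offset shrinks differences of dim probes by construction. Of 367 values of single Wnt genes under the alternatives, 356 moved by less than the software error, 11 by more (10 of them with normexp), and 0 of the genes at least 2-fold different changed sign. The 356 include the values of the deposited series table, which could not move. Without a filter on dim probes, 5 Wnt genes were at least 2-fold higher and 2 lower, because Ror1, Lgr5 (1.31 ± 1.52) and Rnf43 (-1.39 ± 1.56) then count as measured. A second probe of each, dim on both arrays, gave the opposite sign (-0.30 ± 2.04 for Ror1, -0.31 ± 2.03 for Lgr5 and 0.74 ± 1.57 for Rnf43). The count of lower Wnt genes was 0 with normexp, with the filter on both arrays (Wnt10a was dim on 1) and at 3-fold (its bound was 2.50-fold). Of the other pathway genes, 5 were higher without a filter, 1 was higher and 1 lower at 3-fold, and 2 were lower with normexp. The count of all genes at least 2-fold different, 448 higher and 459 lower, was 175 and 108 with normexp and 1282 and 1206 without a filter. Signal over background limits the comparison for the 17 Wnt genes dim on both arrays.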

Other observations

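Of 9 Wnt pathway genes with 2 probes above background on at least 1 array, the probes of 5 shared a sign (Fzd2, Fzd3, Fzd8, Ryk and Tcf7). Those of Fzd7, Lef1, Nkd2 and Wnt5b did not. Their differences ran from -0.08 to 0.30 for Fzd7, from -0.36 to 0.01 for Lef1, from -0.01 to 0.19 for Nkd2 and from -0.03 to 0.09 for Wnt5b. The array design placed the brighter Ryk probe on chromosome 8 (121741137 to 121741196) and the dimmer one on chromosome 9 (102610181 to 102610240). Both gave nearly the same difference, 0.09 and 0.12.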
